A study of Mus musculus with 4 samples.

Results

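The cytoplasmic ribosomal protein genes encode the proteins of the large (Rpl) and small (Rps) ribosomal subunits. They were taken as the protein-coding genes whose symbol is Rpl or Rps followed by a number, with the usual suffixes, plus Rplp0, Rplp1, Rplp2 and Rpsa. This gave 83 of the 21900 protein-coding genes of the RefSeq table, 51 of the large and 32 of the small subunit. The span of such a gene was touched, by at least 1 base, by 56 of the 12061 peaks called in WT and by 90 of the 16939 called in TRE-Msi2.

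RNA bound by MSI2, a Musashi-family RNA-binding protein, had been isolated by CLIP-seq, in which ultraviolet light joins protein to RNA before the protein is pulled down with an antibody. The 4 libraries came from mouse intestinal epithelium on a C57BL6 background: 2 from wild-type mice (WT), with crypts as the material and no doxycycline recorded, and 2 from TRE-Msi2 animals, in which doxycycline switches on an Msi2 transgene, with total epithelium taken after 24 hours of doxycycline. Genotype, tissue fraction and doxycycline therefore cannot be told apart. The labels used here give neither age nor the source of the doxycycline-dependent activator. Because the authors merged the 2 libraries of each genotype into 1 peak list, values carry no replicate error and differences between lists have no test. Messenger abundance was not measured in the files used, and its part in the presence or height of a peak was not tested. Of 6 epithelial markers, 5 held a peak in both lists (Cdx2 held none), as did 2 of 5 immune markers (Cd74 and Lyz2) and 0 of 6 stromal markers.

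Ribosomal protein messengers are among the most abundant messengers of growing cells, and the crypt epithelium renews itself continuously. Most of them begin with a terminal oligopyrimidine (TOP) tract, a run of C and T bases at the start of transcription that ties their translation to mTORC1 signalling through the protein LARP1. Their introns often carry small nucleolar RNAs (snoRNAs), which guide the chemical modification of ribosomal RNA. They also have many pseudogene copies in the genome.

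The start sites are shown because the TOP tract is the sequence feature for which this gene family is known. Of the 83 genes, 63 had an entry in the RefSeq promoter table (GRCm38.p6, the assembly also called mm10). A run of at least 5 C or T bases that includes the annotated first base was found in 21 of these 63 (33.3%), against 10.2% of the 17492 protein-coding genes in the table. The windows below hold 15 bases before the annotated start and 15 from it onward, 5′ to 3′ on the gene's strand, with the pyrimidine run in capitals. The first 4 genes held an MSI2 peak and the last 4 held none.
Rps6, chr4:86857353-86857382, minus strand: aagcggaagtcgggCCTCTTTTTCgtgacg
Rpl15, chr14:18270972-18271001, minus strand: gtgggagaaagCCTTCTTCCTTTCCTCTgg
Rpl28, chr7:4792950-4792979, plus strand: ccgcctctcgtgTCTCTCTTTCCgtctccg
Rps10, chr17:27635230-27635259, minus strand: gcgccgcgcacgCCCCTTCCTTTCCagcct
Rpl35, chr2:39005117-39005146, minus strand: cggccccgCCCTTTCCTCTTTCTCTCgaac
Rpl14, chr9:120571502-120571531, plus strand: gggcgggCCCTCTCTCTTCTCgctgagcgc
Rplp2, chr7:141447636-141447665, plus strand: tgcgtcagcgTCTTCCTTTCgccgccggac
Rps18, chr17:33955651-33955680, minus strand: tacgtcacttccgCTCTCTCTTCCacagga
Such a run was annotated in 14 of 45 genes with a peak in either list (31.1%) and in 7 of 18 genes with none (38.9%). No peak of either list touched the promoter windows of these genes, which reach from 250 bases before to 50 bases after the start. The rule counts only runs that reach the annotated first base.

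MSI2 peaks were found over 41 of the 83 genes (49.4%) in WT and over 55 (66.3%) in TRE-Msi2. The same shares among all protein-coding genes were 20.3% for WT and 24.9% for TRE-Msi2. Ribosomal protein genes are short, with a median span of 3.18 kb against 17.1 kb, and 82 of them span less than 10 kb. Of all protein-coding genes with spans under 10 kb, 10.2% held a WT peak and 13.4% a TRE-Msi2 peak.

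Both subunits were represented. Of the 51 large subunit genes, 26 (51.0%) held a WT peak and 32 (62.7%) a TRE-Msi2 peak. Of the 32 small subunit genes, 15 (46.9%) held a WT peak and 23 (71.9%) a TRE-Msi2 peak. The TRE-Msi2 list is the longer one. With its highest-scoring peaks alone kept, as many as WT has, 25 large subunit genes held a TRE-Msi2 peak, against 26 in WT. For the small subunit the counts were 22 and 15. The share over all protein-coding genes is not given for the cut list, so neither count was read as a difference between the lists. Peaks in both lists were held by 25 large and 15 small subunit genes. No peak in either list was found over 18 large and 9 small subunit genes. The 27 genes without a peak include major core proteins: Rpl3, Rpl6, Rpl9, Rpl11, Rpl14, Rpl21, Rpl23a, Rpl29, Rpl31, Rpl35, Rpl36, Rpl37, Rpl38 and the stalk proteins Rplp1 and Rplp2 of the large subunit, and Rps2, Rps14, Rps15, Rps18, Rps19, Rps21 and Rpsa of the small subunit. Also among them are Rpl3l, Rpl10l and Rpl39l, paralogs of Rpl3, Rpl10 and Rpl39.

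**Figure D1:**
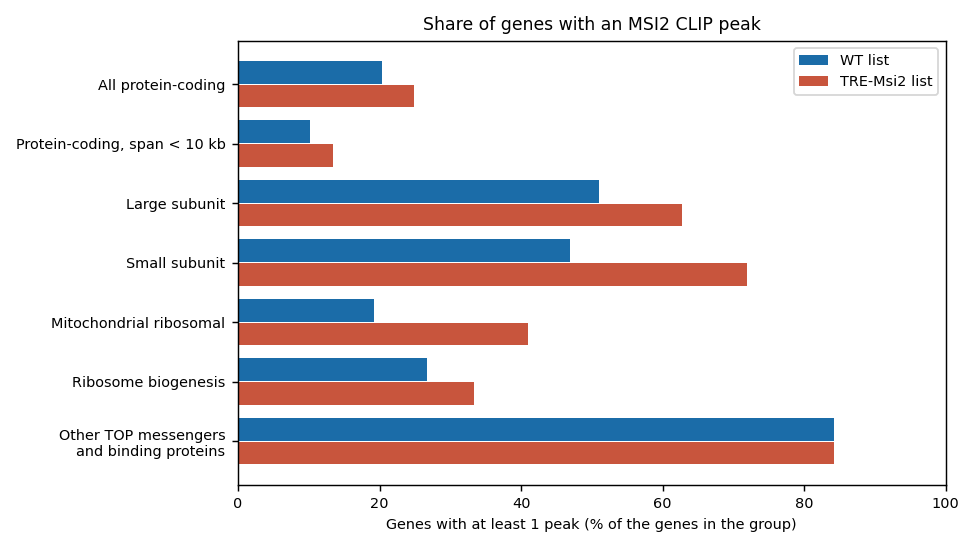
Share of genes with at least 1 MSI2 peak (horizontal axis, percent of the genes in each group) in the WT list (blue) and TRE-Msi2 list (red), with no error bars because each list is pooled. The groups are all protein-coding genes, those with short spans, both subunits and 3 related gene lists; the large and small subunit bars lie between 46.9% and 71.9%, and those of all protein-coding genes at 20.3% and 24.9%.

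The peaks over these genes had heights near those of the lists as a whole. The authors' score of a single-bin peak behaves as a read count per bin of 200 nt. Peaks joined from several bins carry a value that behaves as an average. Some of these averages lie below the lowest single-bin score, such as 12.3 for Rps6 in WT against 15. What exactly they average is therefore not known. Over ribosomal protein genes the median peak score was 19 for WT and 26 for TRE-Msi2, against 19 and 24.7 over all peaks. The highest peak of each gene had a median of 21.8 for WT and 28.8 for TRE-Msi2, against 21 and 28 over all protein-coding genes with a peak. The large and small subunits had similar medians, 20.4 and 22.5 in the WT list and 28.9 and 28 in the TRE-Msi2 list. More of the peaks were a single bin than in the lists as a whole, 76.8% against 63.2% in WT and 74.4% against 58.8% in TRE-Msi2, and none was wider than 800 nt (Rpl23, TRE-Msi2).

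In the WT list, Rpl4, which lines the wall of the peptide exit tunnel, had the highest score of the family. Its single peak, at positions 64178394 to 64178593 of chromosome 9, scored 51 reads per bin (exact Poisson 95% interval 38.0 to 67.1), higher than 98.7% of WT peaks. In the TRE-Msi2 list the same place was part of a joined peak of 400 nt with an average of 34, so its value per bin there is not known. Among the other high WT scores were those of Rps27a and Rps7 with 33 each (22.7 to 46.3) and Rps23 with 31 (21.1 to 44.0). Rpl23 had a joined peak with an average of 30.5, and Rpl7 and Rps3a1 reached 27. The intervals cover counting error only. Those of the single-bin peaks named here overlap, and the order of these genes was not tested.

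In the TRE-Msi2 list the highest score belonged to Rps27a, which encodes ubiquitin fused to a small subunit protein. Its peak at positions 29545801 to 29546000 of chromosome 11 scored 61 (46.7 to 78.4), higher than 98.8% of TRE-Msi2 peaks. Other high scores were those of Rps20 with 52 (38.8 to 68.2), Rps3a1 with 47 (34.5 to 62.5) and Rps23 with 45 (32.8 to 60.2). Rps29 had 42 (30.3 to 56.8), Rps7 had 41 (29.4 to 55.6), and Rpl41, which encodes one of the smallest known proteins, had a joined peak averaging 42. Here too the intervals overlap. Small subunit genes made up 5 of the 8 highest in WT, where they were 15 of the 41 genes with a peak, and 7 of the 8 highest in TRE-Msi2, where they were 23 of 55. The order of the genes was not tested, and the TRE-Msi2 medians were 28.9 for the large and 28 for the small subunit. This count was therefore not read as a difference between the subunits. Among the 8 highest, 5 genes were common to both lists. Over the 40 genes with peaks in both lists, the rank correlation of the top scores was 0.58 (Spearman), given as a description across genes that share the same pooled libraries.

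**Figure D2:**
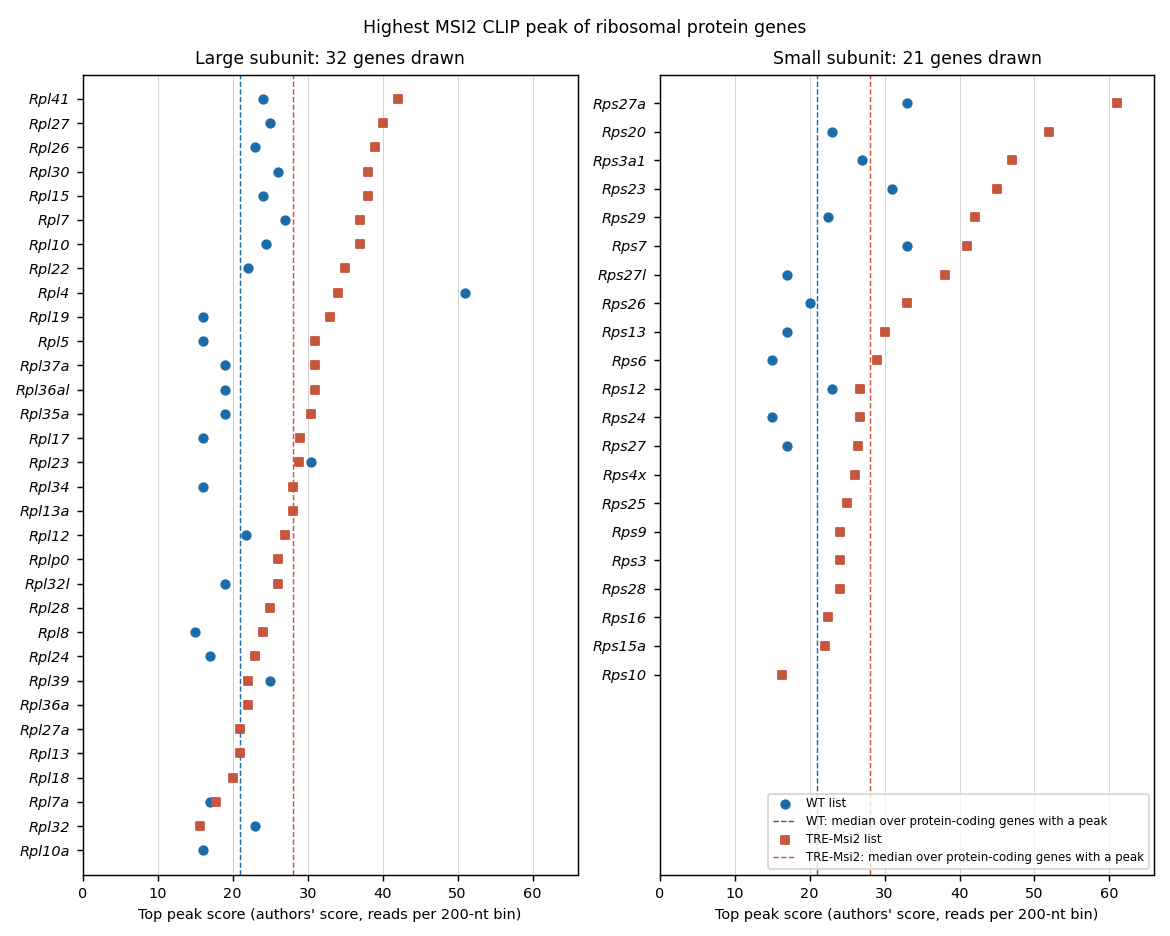
Top peak score of 53 of the 56 ribosomal protein genes with a peak (horizontal axis, authors' score in reads per bin of 200 nt), large subunit on the left and small subunit on the right, WT as blue circles and TRE-Msi2 as red squares. Dashed lines mark the median top score over all protein-coding genes with a peak, 21 in WT and 28 in TRE-Msi2; a missing symbol means no peak in that list, and the lists share no depth scale.

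Most of these genes held a single peak, as did most genes with a peak in general. The share with 1 peak was 70.7% in WT and 60.0% in TRE-Msi2, against 71.2% and 69.1% of protein-coding genes with spans under 10 kb and 58.9% and 53.7% of all protein-coding genes with a peak. In the WT list 29 genes had 1 peak, 10 had 2, Rpl35a had 3 and Rps3a1 had 4. In the TRE-Msi2 list 33 had 1 peak, 13 had 2, 6 had 3, Rps3a1 and Rps7 had 4, and Rpl17 had 5. Rps3a1, a small subunit protein gene on chromosome 3, showed the same 4 single-bin peaks in both lists. Counted from the end of the gene upward, their middles lay 38.5, 638.5, 1038.5 and 3838.5 nt away, with scores of 19, 27, 18 and 21 in WT and 32, 47, 26 and 30 in TRE-Msi2. The second peak was the highest in both lists. Rps7 had peaks 288.5 and 788.5 nt from its end in both lists, and peaks 2988.5 and 3388.5 nt from it, with scores of 21 and 27, in the TRE-Msi2 list alone. Rpl17, near the exit of the tunnel, had WT peaks of 15 and 16, at or next to the lowest single-bin WT score of 15, and TRE-Msi2 peaks of 21.3 to 29.

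Peaks gathered near the end of the gene. Each span was cut into 3 equal segments in the direction of its transcript. The middle of the peak lay in the 3′ segment for 43 of 55 WT peaks (78.2%, exact Clopper-Pearson 95% interval 65.0% to 88.2%) and 62 of 89 TRE-Msi2 peaks (69.7%, 59.0% to 79.0%), and in the 5′ segment for 5 and 11. The shares over all protein-coding genes with spans under 10 kb were close to these, at 72.5% for WT and 70.2% for TRE-Msi2. The middle of the peak lay a median of 286.5 nt from the gene end in WT and 560.5 nt in TRE-Msi2. A peak covered the last base of the gene in 19 genes in WT and 24 in TRE-Msi2, among them Rps27a, Rpl4, Rps27l and Rps23. The same count over other protein-coding genes is not given here. By subunit, the 3′ segment held 25 of 30 large and 18 of 25 small subunit peaks in WT, and for TRE-Msi2 36 of 47 and 26 of 42. Exons and untranslated regions are not in the table used, so peaks were not placed in them.

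Several genes had their highest peak far from the end. The only peak of Rps20 lay 2969.5 nt upstream of the annotated end of a span of 4072 nt, with a score of 23 in WT and 52 in TRE-Msi2. Rpl5, which carries 5S ribosomal RNA into the ribosome, had its only WT peak (16) 6923.5 nt from the end of a span of 8498 nt, and in TRE-Msi2 this peak (31) and another of 30 at 5723.5 nt. Rps29 had its highest TRE-Msi2 peak (42) 991.5 nt from the end, where the WT score was 20. Which transcript form was present was not measured. The 3′ segment held the highest peak of 33 of 40 genes in WT and, in TRE-Msi2, of 43 of 54. For the highest peaks of other protein-coding genes this share is not given.

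**Figure D3:**
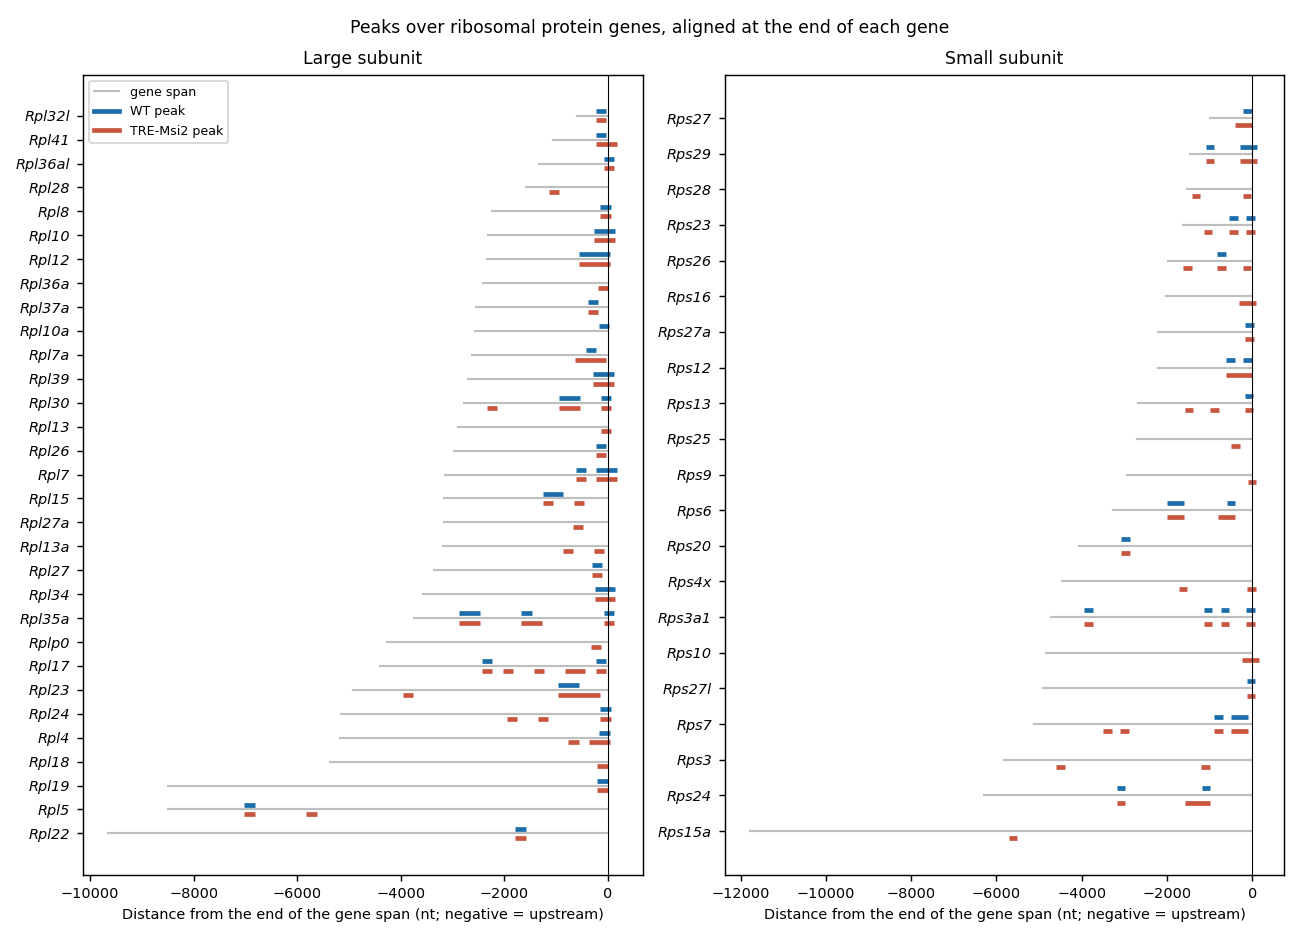
Peaks over 52 of the 55 ribosomal protein genes with a peak and a known direction, each row 1 gene aligned at the end of its span (horizontal axis, nt from the gene end, negative upstream), with the span in grey, WT peaks in blue and TRE-Msi2 peaks in red; Rpl32 is left out because its 2 peaks run in opposite directions. Most of the peaks drawn, 40 of 51 for WT and 59 of 85 for TRE-Msi2, have their middle in the 3′ segment of the span.

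The strand of the peaks was that of the genes. Over genes whose strand is in the promoter table, all 40 WT peaks and all 70 TRE-Msi2 peaks were on the gene's strand. For 10 further genes the direction was taken from their own peaks, which all ran one way in both lists. Rpl32 was the exception. Its span overlaps that of Cand2 at the side where its peaks lie. The 2 peaks are listed on opposite strands, in WT on the minus strand (score 23) and in TRE-Msi2 on the plus strand. The latter is joined over 600 nt with an average of 15.7, below the lowest single-bin score of 20. The strand of Rpl32 and Cand2 is not in the table used. Another protein-coding gene was also touched by 1 WT peak and 1 TRE-Msi2 peak each of Rpl32, Rpl32l, Rpl24 and Rpl10, and by the TRE-Msi2 peak of Rpl41, and Rpl32l lies wholly inside Map7.

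Wherever a WT peak was found, the TRE-Msi2 list nearly always had one at the same place. Of the 56 WT peaks, 54 (96.4%, 87.7% to 99.6%) overlapped a TRE-Msi2 peak on the same strand, and the other 2 were those of Rpl32 and Rpl10a. Over all peaks in protein-coding genes this share was 91.0%. In the other direction 53 of 90 TRE-Msi2 peaks (58.9%, 48.0% to 69.2%) overlapped a WT peak, against 58.7% over protein-coding genes. The 37 TRE-Msi2 peaks without a WT counterpart scored 23 at the median and the others 31, and 18 of them lay in genes that held a WT peak elsewhere. In the 3′ segment lay 21 of 36 of the former (58.3%, 40.8% to 74.5%) and 41 of 53 of the latter (77.4%, 63.8% to 87.7%). The intervals overlap, and these shares were not tested against each other.

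Peaks in the TRE-Msi2 list alone were held by 15 genes, which is 27.3% of the 55; over all protein-coding genes with a TRE-Msi2 peak, 23.2% had no WT peak, so the share is near the background. Those of the large subunit were Rpl13a (28), a protein also known for a role in translational silencing, the stalk base protein Rplp0 (26), Rpl28 (25), Rpl36a (22), Rpl13 and Rpl27a (21 each) and Rpl18 (20). Those of the small subunit were Rps4x (26), Rps25 (25), Rps9, Rps28 and Rps3 (24 each), Rps16 (22.5), Rps15a (22) and Rps10 (16.3). These 15 top scores had a median of 24, below the 28 over all protein-coding genes with a TRE-Msi2 peak. The 40 shared genes had a median of 32, and 12 of them had a top score of 28 or less. The score of Rps10 is an average over a joined peak, and the lowest single-bin score of the list was 20. Rpl13a, Rps3, Rps28 and Rps4x held 2 peaks each. In the WT list alone a peak was held by Rpl10a, with a score of 16 at positions 28330856 to 28331055 of chromosome 17, where the lowest single-bin score was 15. That is 2.44% of the 41 genes, against 5.91% of all protein-coding genes with a WT peak.

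Where both lists had a single-bin peak at the same position, the scores could be set side by side. There were 33 such positions in 27 ribosomal protein genes and 3130 over protein-coding genes. The ratio of the TRE-Msi2 to the WT score had a median of 1.60 and its highest value, 2.26, in Rps20 (23 and 52), against a median of 1.52 over protein-coding genes. The middle 50% of the ratios spanned 1.37 to 1.74 here and 1.31 to 1.74 there, and these ranges nearly coincide. The depth of the libraries is not known, so a ratio above 1 is not a rise in binding. Rps27l (17 and 38, ratio 2.24), Rps29 (20 and 42, 2.10) and Rpl19 (16 and 33, 2.06) stood with Rps20 at the upper end, and Rpl35a (18 and 22, 1.22) and Rps7 (33 and 41, 1.24) toward the lower. From the lowest to the highest class of WT score (15 to 16, 17 to 19, 20 to 24 and 25 to 40), the median ratio over ribosomal protein positions was 1.73, 1.63, 1.65 and 1.46, and over protein-coding genes 1.67, 1.56, 1.45 and 1.37. A position had to reach at least 15 in WT and 20 in TRE-Msi2, which keeps low ratios out of the lowest class, so no trend with the score is read from these medians. A gene's top score was lower in the TRE-Msi2 than in the WT list in 4 genes, Rpl4, Rpl23, Rpl32 and Rpl39. In all 4 the TRE-Msi2 peak was a joined one with an averaged score. The WT peaks of Rpl23, Rpl32 and Rpl39 were joined as well. For Rpl39 both lists held the same 400-nt peak, at 25 in WT and 22 in TRE-Msi2.

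**Figure D4:**
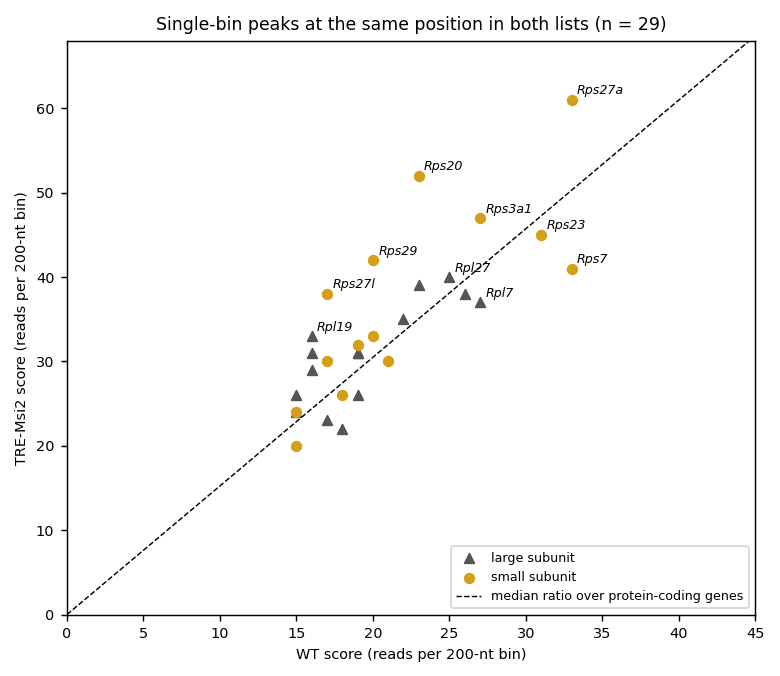
Scores of 29 of the 33 single-bin peaks found at the same position in both lists over ribosomal protein genes, WT on the horizontal and TRE-Msi2 on the vertical axis (both in reads per bin of 200 nt), large subunit as grey triangles and small subunit as yellow circles. The dashed line is the median ratio of 1.52 over protein-coding genes; Rps20, Rps27a, Rps29 and Rps27l lie above it and Rps7 below it.

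The peaks were also set against the small RNAs encoded inside these genes. The table placed 64 small RNAs, namely 59 snoRNAs, 4 miRNAs and 1 snRNA, in the spans of 31 ribosomal protein genes, with 5 each in Rpl4 and Rpl13a. Of the 31 host genes, 17 (54.8%) held a WT and 22 (71.0%) a TRE-Msi2 peak; of the 52 other genes, 24 (46.2%) and 33 (63.5%) did. The small RNAs themselves were touched by 5 of the 56 WT peaks, in 4 genes, with scores of 15 to 23. In TRE-Msi2 they were touched by 6 of 90 peaks, in 5 genes, with scores of 17.8 to 28. The same share over all peaks is not given, so these counts have no background. In Rps12 the peaks reached Snora33 and Snord100, in Rpl7a a small RNA with no common name, in Rpl17 Snord58b (and in TRE-Msi2 also Gm23301), and in Rpl13a Snord35a, the last in TRE-Msi2 alone. For Rpl7a and Rps12 every peak in both lists touched a small RNA, so their signal cannot be given to the messenger alone. Which of the RNAs gave the reads was not tested. The high-scoring host genes Rpl4 and Rps20 had no peak that touched one of their small RNAs.

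A miRNA that lay close to a peak was Mir7079 in Rpl13, which is shown because it lies next to the only peak of that gene. Its mature forms are given from RefSeq (GRCm38.p6), with the seed (bases 2 to 8) in capitals.
mmu-miR-7079-5p, chr8:123104980-123105001, plus strand: aGGGCUGAggcagugaguccug
mmu-miR-7079-3p, chr8:123105023-123105043, plus strand: uGACUUCUguucucuuuccag
The Rpl13 peak, found in TRE-Msi2 with a score of 21, lay 100 nt from the first of these and 58 nt from the second, and so touched neither.

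Paralogs and pseudogenes can limit how reads are assigned, and how alike their sequences are was not measured. Rps27 and its paralog Rps27l, a target of p53, both held a peak in each list, with 17 and 17 in WT and 26.5 and 38 in TRE-Msi2. Rpl36al held a peak in both lists (19 and 31), which covered the gene end and reached beyond it, and Rpl36a a peak in TRE-Msi2 (22) and none in WT. Rpl22 held 1 peak in each list (22 and 35) and Rpl22l1 none in WT and 2 in TRE-Msi2, at 20 or below. Rpl7 (27 and 37) and Rpl7l1 (25 and 27.5) both held peaks, and Rpl10 (24.5 and 37) and Rpl39 (25 and 22) held peaks while their paralogs Rpl10l and Rpl39l did not; Rpl3 and Rpl3l held none. Of 318 pseudogenes named after a ribosomal protein, 1 held a WT peak (0.314%) and 4 a TRE-Msi2 peak (1.26%). All of these peaks also lay in another protein-coding gene. For Rps23-ps2 that gene was Rps23rg1, which is itself named after Rps23. How reads that match several places were treated is not stated in the labels.

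Other genes of the ribosome and its messengers gave a mixed picture. Of 6 ribosome components that the symbol rule leaves out, 3 held a WT and 4 a TRE-Msi2 peak: the scaffold protein gene Rack1 (21 and 38), Fau (17 and 37.5), which encodes a small subunit protein as a fusion, Rpl7l1, and in TRE-Msi2 Rpl22l1, while Rps27rt held none. Of 78 genes for mitochondrial ribosomal proteins, 15 (19.2%) held a WT and 32 (41.0%) a TRE-Msi2 peak, led by Mrps36 at 47 in TRE-Msi2. Of 30 ribosome biogenesis genes, 8 (26.7%) and 10 (33.3%) did, among them the nucleolar proteins Npm1 (51.5 and 37.5) and Ncl (25 and 41) and the RNA polymerase I factor Ubtf (43 and 55). Of 19 other TOP messengers and their binding proteins, 16 (84.2%) held a peak in both lists, among them Eef1a1 (40.9 and 47.3), Tpt1 (25 and 42), Pabpc1 (54 and 97) and Larp1 (29 and 47); Eef1d, Eef1g and Eif3f held none. These genes have longer spans (medians 7.69 kb, 12.8 kb and 13.3 kb for the last 3 lists), and none of these counts was tested against the ribosomal protein genes.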

How the data were processed

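The authors deposited 1 peak list per genotype, with the 2 libraries of a genotype merged; per the file names, duplicate reads were removed and peaks were called with Piranha. The submitters' processing notes name cutadapt and TopHat and the builds mm9 and mm10; no version is given. Each deposited row joins 2 values in 1 cell, a score and the caller's p-value; the authors' score behaves as reads per bin of 200 nt, and the p-values of joined peaks were not taken as tests. Depth per library is unknown.

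Peaks were matched to gene spans of RefSeq GRCm38.p6 by an overlap of at least 1 base, with Python 3.11.15, pandas 2.3.3 and scipy 1.17.1; the overlap step was tested on simulated intervals. Strand came from the promoter table for 63 genes and from the direction of their own peaks for 10, and 10 had none. The members and lists were chosen with earlier results of these data known, and the comparison of scores at identical positions was added after seeing the data. Some members are counted but not reported by name here, and they are not drawn in the gene plots; full values went to the 8 genes with the highest scores and the 4 with the most peaks in each list, genes with a peak in 1 list, and paralogs. Intervals cover counting error only. Sequence under the peaks was not analysed here.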

Additional observations from a re-analysis of the deposited data

How the results depend on the processing

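Most recomputed values stayed near the reported ones by a wide rule. Of 50 recomputed summary values, 47 stayed within 1.5 times the count, or within the counting interval, of the reported value. All 30 recomputed top scores were unchanged, but they could not have moved. None of these top peaks touched a small RNA inside its gene. The single-bin setting gave a value only where the top peak was itself a single bin. Some of the 50 summary values could not move either, such as WT gene counts when the TRE-Msi2 list was shortened. These numbers are therefore no measure of stability. The rule of 1.5 times also passed marked falls in gene counts. Genes with a peak in TRE-Msi2 alone fell from 15 to 10 when that list was cut to the WT length. Keeping the upper 50% of each list by score lowered the counts of genes with a peak. Large subunit genes went from 26 to 18 in WT and from 32 to 23 in TRE-Msi2. Small subunit genes went from 15 to 10 and from 23 to 17. When the TRE-Msi2 peaks were cut to as many as WT has, keeping the highest scores, 87.5% of WT peaks over ribosomal protein genes overlapped a TRE-Msi2 peak in place of 96.4%, and genes with a WT peak alone numbered 4 (Rpl10a, Rpl32, Rpl39 and Rpl7a) in place of 1; with at least 50% of the peak required inside the gene they numbered 2. No paired analysis was possible because the libraries of each genotype were merged into 1 list; for the same reason no replicate could be left out. The lowest single-bin score was 15 in WT and 20 in TRE-Msi2, while joined peaks over these genes went down to 12.3 and 15.7. A gene without a peak may lie just below what the caller kept.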
